A study of Mus musculus with 6 samples.

Results

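NRF2, encoded by Nfe2l2, its inhibitor Keap1 and 8 direct target genes of NRF2 were followed in Hepa1-6 cells, a mouse hepatoma line grown in culture, after knockdown of Zfp207. The members were taken by gene name from the count table, 10 of its 34718 genes, and all 10 had enough counts to be tested. They were Nfe2l2, Keap1, Nqo1, Hmox1, Gclc, Gclm, Gsr, Txnrd1, Srxn1 and Osgin1. The series holds 6 libraries of total RNA, 3 titled shZfp207 with the genotype Zfp207 knockdown and 3 titled shNC with the genotype control, 1 short hairpin label per group, and the tissue of all 6 is labelled as tumor. The sources used here do not give the number of hairpins, whether the lines are clones or whether replicates were separate cultures. With 1 label per group, loss of Zfp207 and any other effect of a hairpin cannot be told apart, and p-values measure only how far these samples spread, which may be technical.

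NRF2 is a basic leucine zipper factor that binds antioxidant response elements as a dimer with a small Maf protein. In unstressed cells KEAP1 holds NRF2 for ubiquitination by a CUL3 ligase, so that much of the control of NRF2 is exerted on the protein and not on its messenger RNA. Oxidants and electrophiles modify cysteines of KEAP1, NRF2 accumulates, and its targets for quinone reduction, haem breakdown, glutathione synthesis and the thioredoxin system are transcribed. In liver and in liver tumours the pathway is known for its part in detoxification.

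The bases before the transcription start were examined for 7 of the 10 members, which had 9 start sites in the RefSeq table of GRCm38.p6. The other 3 are Gclc, Hmox1 and Gsr. The antioxidant response element core was spelled TGACNNNGC and searched on both strands in the 250 bases before each start. It was present in 1 window each of Gclm, Nfe2l2 and Txnrd1, 3 of 9 windows, and in 10.2% of all 32851 windows of that length. The 4 windows printed here are those 3 and that of Nqo1, the member with the largest rise, and capitals mark the core. They lie on the minus strand of chr8:107403206-107403455 for Nqo1, the plus strand of chr3:122245307-122245556 for Gclm, the minus strand of chr2:75704664-75704913 for Nfe2l2 and the plus strand of chr10:82858956-82859205 for Txnrd1.
Nqo1: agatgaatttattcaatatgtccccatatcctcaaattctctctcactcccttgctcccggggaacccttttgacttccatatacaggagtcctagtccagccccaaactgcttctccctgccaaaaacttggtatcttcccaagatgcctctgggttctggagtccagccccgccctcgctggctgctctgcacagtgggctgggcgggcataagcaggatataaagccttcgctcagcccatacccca
Gclm: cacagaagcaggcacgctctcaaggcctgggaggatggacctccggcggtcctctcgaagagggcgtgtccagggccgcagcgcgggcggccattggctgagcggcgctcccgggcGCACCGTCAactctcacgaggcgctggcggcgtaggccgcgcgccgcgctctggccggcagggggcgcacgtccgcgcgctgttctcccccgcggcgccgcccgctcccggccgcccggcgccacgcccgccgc
Nfe2l2: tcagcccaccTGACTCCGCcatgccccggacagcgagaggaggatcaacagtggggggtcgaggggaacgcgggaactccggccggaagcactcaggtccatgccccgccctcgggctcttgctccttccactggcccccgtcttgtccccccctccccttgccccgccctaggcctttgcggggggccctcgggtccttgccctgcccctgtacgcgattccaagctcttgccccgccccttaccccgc
Txnrd1: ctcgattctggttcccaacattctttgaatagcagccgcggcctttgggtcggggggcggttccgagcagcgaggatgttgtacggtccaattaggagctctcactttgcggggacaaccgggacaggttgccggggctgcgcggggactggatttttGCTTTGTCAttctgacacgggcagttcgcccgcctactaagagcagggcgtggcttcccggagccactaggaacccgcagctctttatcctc
The core of Gclm lies on the opposite strand from -134 to -126 bases before the start, that of Nfe2l2 on the strand of the gene from -240 to -232, and that of Txnrd1 on the opposite strand from -92 to -84. The AP-1 element TGANTCA, searched on both strands, was found in Srxn1, at -102 and at -45, and in Osgin1, at -97, against 6.75% of all windows. With the bases beside it, the Srxn1 match at -45 reads TGAGTCAGC, as does the Osgin1 match on the opposite strand. These differ from the antioxidant core as spelled here only in a G for its C. The search did not include that spelling, so 3 of 9 windows counts the TGAC spelling alone. The dioxin response element core GCGTG was found in 7 of the 9 windows on either strand, against 28.2% of all windows. By gene it was found in 5 of 7, since each start of Txnrd1 is a window of its own. In Osgin1 its match overlaps that of the AP-1 element. No spelling of the 3 was found in the Nqo1 window, which says only that these letters are not in those 250 bases. A match is a description of the letters and not of binding.

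The library totals were 14629661 to 15236957 counts in knockdown and 11933736 to 16248346 in control cells. Zfp207 had 46.8 to 48.1 CPM (counts per 1000000 counts of the library) in knockdown and 141 to 217 CPM in control libraries (edgeR log2 fold change -1.95 with SE 0.17, adjusted p = 0.00236). Control replicate 1 stood apart, with 10.5% of its counts from mitochondrially encoded genes, against 5.61% to 6% in knockdown cells and 2.67% to 2.89% in control replicates 2 and 3. Malat1, a nuclear noncoding RNA, also set control replicate 1 apart, at 331 CPM, against 104 to 129 CPM in knockdown cells and 30.03 to 30.84 CPM in control replicates 2 and 3. Of 12 hepatoma markers 9 were tested, and by edgeR 4 were higher (Alb, Afp, Apoa1 and Fgb), 4 lower (Krt8, Krt18, Trf and Apoa2) and 1, Hnf4a, did not pass. Apoa1 and Apoa2 were low, at most 3.48 and 1.59 CPM in any library. Ttr, Serpina1a and Ambp, which were not tested, had at most 0.342, 0.251 and 0.656 CPM. The 12 hepatoma markers summed to 7862 to 8011 CPM in knockdown and 6455 to 7622 CPM in control libraries. Alb had 2247 to 2379 CPM in knockdown and 524 to 1206 CPM in control libraries, and Krt8 had 754 to 804 CPM in knockdown and 1227 to 1266 CPM in control libraries. Of 8 T cell markers 5 had no count in any library, as had 3 of 8 macrophage, 1 of 8 fibroblast and 1 of 8 endothelial markers. The summed levels were 0.394 to 0.684 against 0 to 0.168 CPM for T cell, 14.6 to 16.9 against 14.9 to 19.3 CPM for macrophage and 5.57 to 7.04 against 5.35 to 10.9 CPM for endothelial markers, in knockdown against control. Fibroblast markers summed to 2701 to 2783 against 2044 to 2309 CPM, nearly all of it Dcn, which did not pass (edgeR adjusted p = 0.0968), while Col1a2 and Col3a1 were at most 0.251 CPM. Pdgfra, the only fibroblast marker that passed, was lower, at 16.4 to 18.1 CPM in knockdown and 24.4 to 27.5 CPM in control libraries (edgeR adjusted p = 0.0181). Csf1r, a macrophage receptor gene and the only macrophage marker that passed, had 3.08 to 3.41 CPM in knockdown and 0.168 to 0.862 CPM in control libraries. Cd68 went the other way, at 10.2 to 12.5 CPM in knockdown and 12.8 to 17.0 CPM in control libraries (edgeR adjusted p = 0.142). Lyz2 did not pass either (edgeR adjusted p = 0.609), and Ptprc and Adgre1 had at most 0.525 and 0.131 CPM. The part of these differences in the results on NRF2 was not tested, and in bulk samples fewer cells of a type and less RNA per cell cannot be told apart.

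Of the 10 members, 2 were higher in knockdown cells and 0 lower at an edgeR adjusted p below 0.05, against 9.92% higher and 10.7% lower of the 11975 genes tested. The 2 were Nqo1, which encodes the quinone reductase NQO1, and Gclc, which encodes the catalytic subunit of glutamate-cysteine ligase. With no adjustment 3 were higher and 0 lower at p below 0.05, against 16.8% higher and 19.1% lower of all genes. DESeq2 and limma-voom each called 3 higher and 0 lower, against 13.3% higher and 13.8% lower of all genes by DESeq2 and 10.4% higher and 10.2% lower by limma-voom. The share called, 20% of members, was near that of all genes in either direction, 20.6%. The median log2 fold change was 0.27 over the members and -0.03 over all genes tested, and 9 members had a positive and 1 a negative value. Of the 11975 genes tested, 5670 had a positive and 6304 a negative value. In 5 members every knockdown library lay above every control library, which held for 21.5% of all genes tested.

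**Figure D1:**
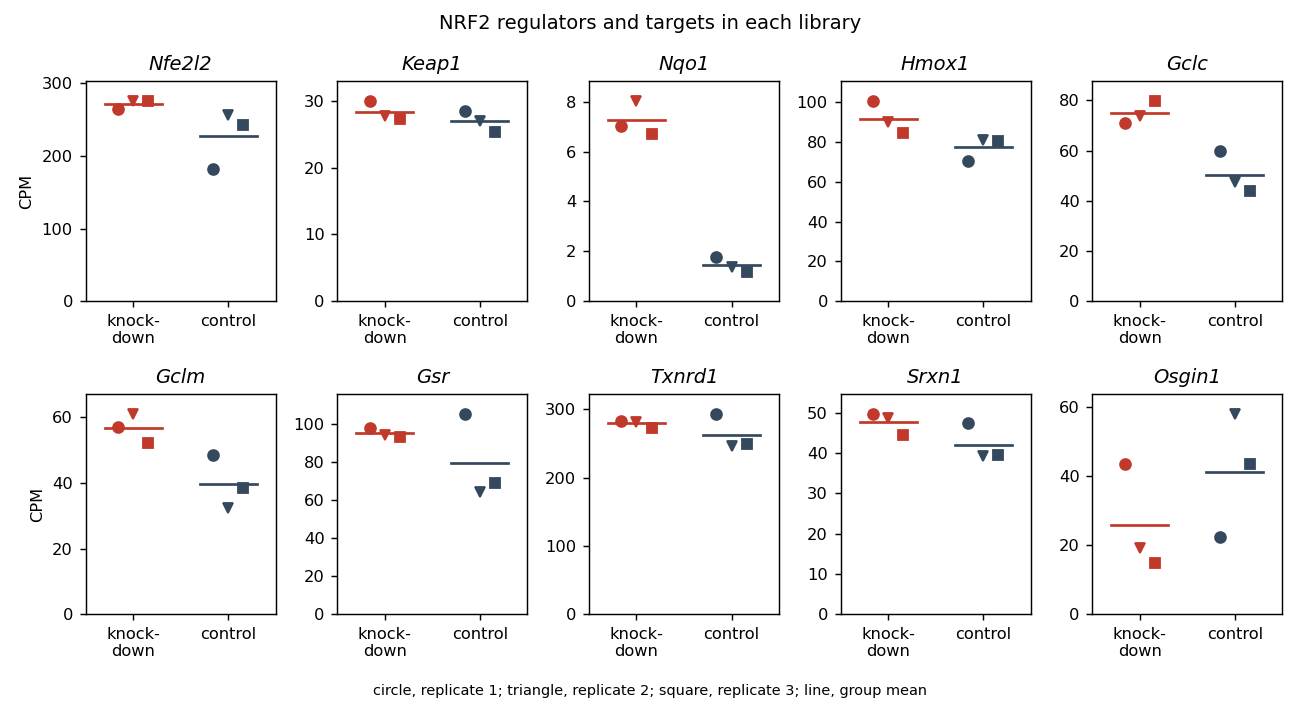
CPM of the 10 members in each library, with knockdown left of control, 3 libraries each, and a line at the group mean. Nqo1 lies at 6.7 to 8.03 CPM in knockdown and 1.17 to 1.76 CPM in control libraries. Control replicate 1 (circle) lies outside the range of the other controls in every panel, and the share of all genes where it does so was not counted.

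Among the regulators, Nfe2l2 had 265, 276 and 275 CPM in knockdown replicates 1 to 3, against 182, 256 and 243 CPM in control replicates 1 to 3. The knockdown libraries were all above the controls, and control replicate 1 was well below control replicates 2 and 3. After TMM scaling (edgeR's correction of library totals), mean levels were 274 ± 7.53 CPM in knockdown and 226 ± 41.1 CPM in control cells (SD, n = 3 each), a log2 fold change of 0.27 that did not pass (SE 0.145, edgeR adjusted p = 0.225). Without control replicate 1 the value was 0.13, and it passed (edgeR adjusted p = 0.0427). Keap1, the adaptor that presents NRF2 to the ligase, had 29.99, 27.7 and 27.3 CPM in knockdown against 28.5, 27.1 and 25.4 CPM in control libraries. The groups overlapped, and the log2 fold change of 0.09 did not pass (SE 0.102, edgeR adjusted p = 0.591). In mm10, Nfe2l2 (ENSMUSG00000015839) spans 75675513 to 75704641 of chromosome 2 and Keap1 (ENSMUSG00000003308) spans 21229730 to 21239332 of chromosome 9, both on the minus strand. Of the exonic bases of Keap1, 10.9% overlap a gene on the opposite strand, and since no strand setting is given its counts may include reads of that gene.

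Nqo1 had the largest fold change of the 10 members. NQO1 reduces quinones in a reaction that passes 2 electrons at once, and Nqo1 is also a known target of the aryl hydrocarbon receptor. It had 107, 121 and 98 counts in knockdown replicates 1 to 3, or 7.02, 8.03 and 6.7 CPM, against 21, 20 and 19 counts, or 1.76, 1.37 and 1.17 CPM, in control replicates 1 to 3. The lowest knockdown library was well above the highest control library. The means were 7.29 ± 0.706 CPM in knockdown and 1.43 ± 0.29 CPM in control cells (SD, n = 3 each), 5.13-fold higher in knockdown cells (log2 fold change 2.36, SE 0.224, edgeR adjusted p = 0.00288). With each library left out in turn the log2 fold change ranged from 2.23 to 2.52 and the highest adjusted p was 0.0295, so Nqo1 kept its call in all 6 fits and was the only member to do so. Of all 11975 genes tested, 489 kept their call in all 6 fits. Nqo1 (ENSMUSG00000003849) spans 107388225 to 107403206 of chromosome 8, minus strand, with 0% of its exonic bases shared with another gene on either strand.

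Hmox1, on the plus strand of chromosome 8 (ENSMUSG00000005413, 75093591 to 75100596), encodes haem oxygenase 1, which opens haem to biliverdin and frees its iron. It had 100.5, 90.2 and 84.3 CPM in knockdown against 70.2, 81.1 and 80.6 CPM in control libraries. The groups did not overlap, with a gap of a few CPM between the lowest knockdown and the highest control library, and the log2 fold change of 0.26 did not pass (SE 0.109, edgeR adjusted p = 0.142). Without control replicate 1 it was 0.19 and did not pass either (edgeR adjusted p = 0.0767).

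Glutamate-cysteine ligase makes the dipeptide precursor of glutathione and limits its rate, with GCLC as catalytic and GCLM as modifier subunit. Gclc had 71.1, 73.8 and 79.8 CPM in knockdown replicates 1 to 3 and 59.7, 47.4 and 44.1 CPM in control replicates 1 to 3. Every knockdown library was higher than every control library, and the means were 75.3 ± 4.81 CPM in knockdown and 50.2 ± 7.89 CPM in control cells (SD, n = 3 each), 1.5-fold higher in knockdown cells (log2 fold change 0.59, SE 0.133, edgeR adjusted p = 0.0258). This call was lost without control replicate 2 or 3 (adjusted p = 0.0754 and 0.0756) and without knockdown replicate 1, 2 or 3 (0.0769, 0.0952 and 0.111), at log2 fold changes of 0.50 to 0.63. It was kept without control replicate 1 (0.72, edgeR adjusted p = 0.000336).

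Gclm had 57.0, 60.8 and 52.1 CPM in knockdown libraries and 48.4, 32.2 and 38.3 CPM in control libraries. These groups did not overlap either, but the log2 fold change of 0.53 missed the threshold (SE 0.158, edgeR adjusted p = 0.0576), while it passed by DESeq2 (adjusted p = 0.0159) and by limma-voom (adjusted p = 0.0486), and without control replicate 1 (0.69, edgeR adjusted p = 0.0014). Gclc (ENSMUSG00000032350) spans 77754535 to 77794485 of chromosome 9, plus strand, with no exonic overlap. Gclm (ENSMUSG00000028124) spans 122245557 to 122270732 of chromosome 3, plus strand, and 3.88% of its exonic bases overlap a gene on its strand and 4.71% one on the opposite strand.

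Gsr encodes glutathione reductase, which returns oxidised glutathione to its reduced form with NADPH. It had 97.7, 94.2 and 93.3 CPM in knockdown libraries and 105.1, 64.4 and 68.7 CPM in control libraries. Control replicate 1 thus lay above the knockdown libraries and control replicates 2 and 3 below them, and the log2 fold change of 0.28 did not pass (SE 0.185, edgeR adjusted p = 0.334). Leaving out control replicate 1 gave 0.52, which passed (edgeR adjusted p = 0.000327). Gsr (ENSMUSG00000031584) spans 33652523 to 33698163 of chromosome 8, plus strand.

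Neither of the 2 members of the thioredoxin system passed with all libraries. Txnrd1, the gene of the cytosolic thioredoxin reductase, a selenoprotein, had 284, 282 and 273 CPM in knockdown against 293, 247 and 249 CPM in control libraries (log2 fold change 0.10, SE 0.0974, edgeR adjusted p = 0.497). Srxn1, the gene of sulfiredoxin, which restores overoxidised peroxiredoxins, had 49.6, 48.6 and 44.6 CPM in knockdown against 47.3, 39.3 and 39.5 CPM in control libraries (0.19, SE 0.11, edgeR adjusted p = 0.256). For both, the knockdown libraries were above control replicates 2 and 3, and control replicate 1 lay above or among them. Both passed without control replicate 1, at log2 fold changes of 0.18 (edgeR adjusted p = 0.00599) and 0.28 (edgeR adjusted p = 0.0166). Txnrd1 (ENSMUSG00000020250) spans 82859206 to 82897724 of chromosome 10 and Srxn1 (ENSMUSG00000032802) spans 152105516 to 152111376 of chromosome 2, both on the plus strand.

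Osgin1, an oxidative stress-induced growth inhibitor gene on the plus strand of chromosome 8 (ENSMUSG00000074063, 119434124 to 119446256), was the only member with a negative value and the one that varied most within the groups. It had 43.5, 19.2 and 14.8 CPM in knockdown replicates 1 to 3 and 22.4, 57.9 and 43.5 CPM in control replicates 1 to 3. The groups overlapped, with knockdown replicate 1 level with control replicate 3. The means were 25.9 ± 15.3 CPM in knockdown and 41.2 ± 18.1 CPM in control cells (SD, n = 3 each), and the log2 fold change of -0.67 did not pass (SE 0.483, edgeR adjusted p = 0.367). It was -1.26 without knockdown replicate 1, -0.39 without knockdown replicate 3 and -0.34 without control replicate 2, and it passed in none of the 6 fits with a library left out.

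Control replicate 1 set how many members passed. It was above control replicates 2 and 3 for 7 members and below both for Nfe2l2, Hmox1 and Osgin1. The share of all genes for which it lay outside them was not counted. In log2 CPM over the genes tested it correlated with control replicates 2 and 3 at r = 0.9495 and 0.9498, against 0.989 between them. The knockdown libraries were all above control replicates 2 and 3 for 9 members, which held for 34.5% of all genes tested. They were below both for 0 members, against 35.9%. Without control replicate 1 the members numbered 7 higher and 0 lower by edgeR, adding Gclm, Gsr, Txnrd1, Srxn1 and Nfe2l2 to the first 2. In that fit 26.1% of the 12108 genes tested were higher and 52.1% passed in either direction. The median over the members was 0.23, against 0.27 with all libraries. Without control replicate 1 the groups were also apart in mitochondrial share, at 5.61% to 6% in knockdown and 2.67% to 2.89% in control libraries. Malat1 was apart as well, at 104 to 129 CPM in knockdown and 30.03 to 30.84 CPM in control libraries. In that fit the knockdown and these differences cannot be told apart. With any other single library left out the count was 1, Nqo1. Whether the mitochondrial share of counts bears on these members was not tested. With mitochondrially encoded genes left out of the counts, the log2 fold changes of Nqo1 and Gclc were 2.37 and 0.60, against 2.36 and 0.59 with them. That refit rescales each library as a whole and moves all members nearly alike, so it cannot answer this question.

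**Figure D2:**
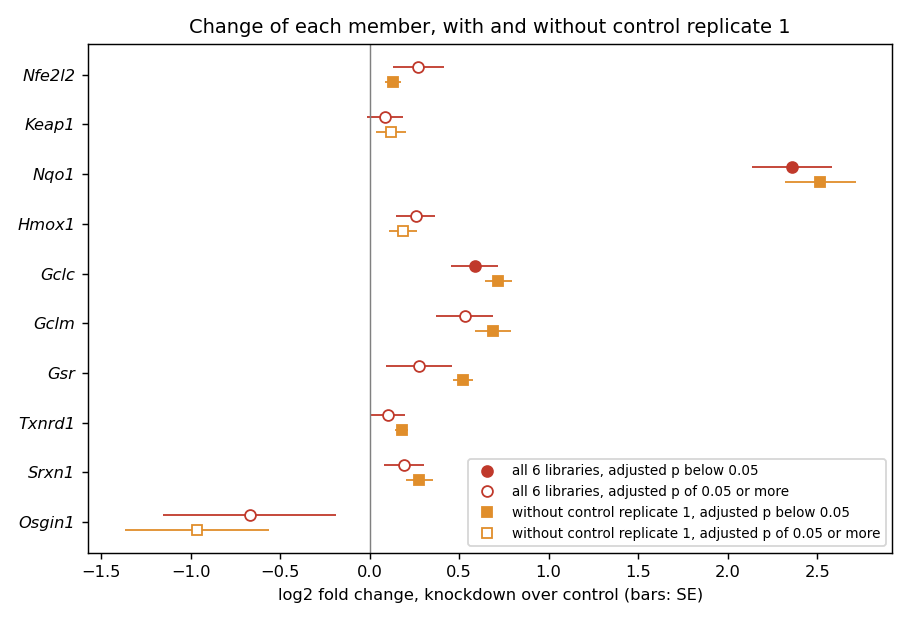
Log2 fold change of each member, knockdown over control, with its SE as a bar, from all 6 libraries (circles) and without control replicate 1 (squares), filled where the edgeR adjusted p is below 0.05. Nqo1 and Gclc are filled in both, Gclm, Gsr, Txnrd1, Srxn1 and Nfe2l2 without control replicate 1, and Keap1, Hmox1 and Osgin1 in neither.

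Levels were compared between genes in FPKM, the authors' counts per 1000 bases of gene length and 1000000 counts. Txnrd1 had the highest level, at 81.6 ± 1.7 FPKM in knockdown and 76.8 ± 7.6 FPKM in control cells (SD, n = 3 each), followed by Nfe2l2 at 69.2 ± 1.53 FPKM in knockdown and 57.7 ± 10.1 FPKM in control cells. Hmox1 had 33.0 ± 2.96 FPKM in knockdown and 27.9 ± 2.22 FPKM in control cells. Gsr, at 31.9 ± 0.771 FPKM in knockdown and 26.6 ± 7.49 FPKM in control cells, overlapped Hmox1 in both groups. Gclc, at 21.8 ± 1.29 FPKM in knockdown and 14.7 ± 2.41 FPKM in control cells, came next. Srxn1, at 13.1 ± 0.735 FPKM in knockdown and 11.6 ± 1.26 FPKM in control cells, was below Gclc in every knockdown library but overlapped it in control cells. Osgin1 had 4.62 ± 2.76 FPKM in knockdown and 7.37 ± 3.19 FPKM in control cells. Gclm, at 6.83 ± 0.524 FPKM in knockdown and 4.78 ± 0.988 FPKM in control cells, overlapped Osgin1 in both groups. Nqo1 was the lowest of the 10 in control cells, at 4.66 ± 0.445 FPKM in knockdown and 0.921 ± 0.193 FPKM in control cells. In knockdown cells it was above Keap1, which had 3.61 ± 0.182 FPKM in knockdown and 3.43 ± 0.2 FPKM in control cells.

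**Figure D3:**
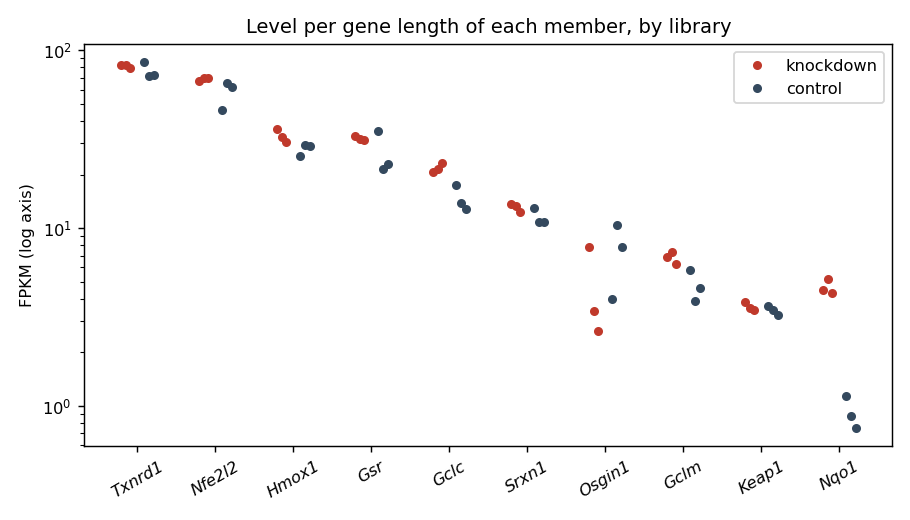
FPKM of each member in each library on a log axis, knockdown left of control, ordered by the control mean. Nqo1 lies above Keap1 in knockdown cells, at a mean of 4.66 FPKM, and lowest of the 10 in control cells, at 0.921 FPKM, while the other members lie between 2.65 and 85.5 FPKM.

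Of 20 other genes that act on NRF2 or share its binding partners, 19 were tested, and 3 were higher and 2 lower (26.3%, against 20.6% of all genes). Nfe2l1, the gene of the related factor NRF1, had 216, 194 and 476 CPM in knockdown replicates 1 to 3 and 53.2, 101.1 and 112.6 CPM in control replicates 1 to 3. Knockdown replicate 3 was far above the other knockdown libraries, yet all were above the controls (log2 fold change 1.74, SE 0.431, edgeR adjusted p = 0.0337). Nfe2l3, the third member of that family, had 0, 5 and 0 counts in knockdown and 25, 28 and 23 counts in control libraries (-3.91, SE 0.854, edgeR adjusted p = 0.0233). Without knockdown replicate 2 its knockdown counts were all 0. The nuclear receptor gene Rxra and the acetyltransferase gene Crebbp were higher, with log2 fold changes of 0.50 and 0.32 (edgeR adjusted p = 0.0391 and 0.0499). Dpp3, listed in the files as 4930533O14Rik and encoding a peptidase that binds KEAP1, was lower, with a log2 fold change of -0.47 (edgeR adjusted p = 0.0469). Of these 5, Nfe2l3 passed in 2 of the 6 fits with a library left out and each of the others in 1, the fit without control replicate 1. The median over the list was 0.26.

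**Figure D4:**
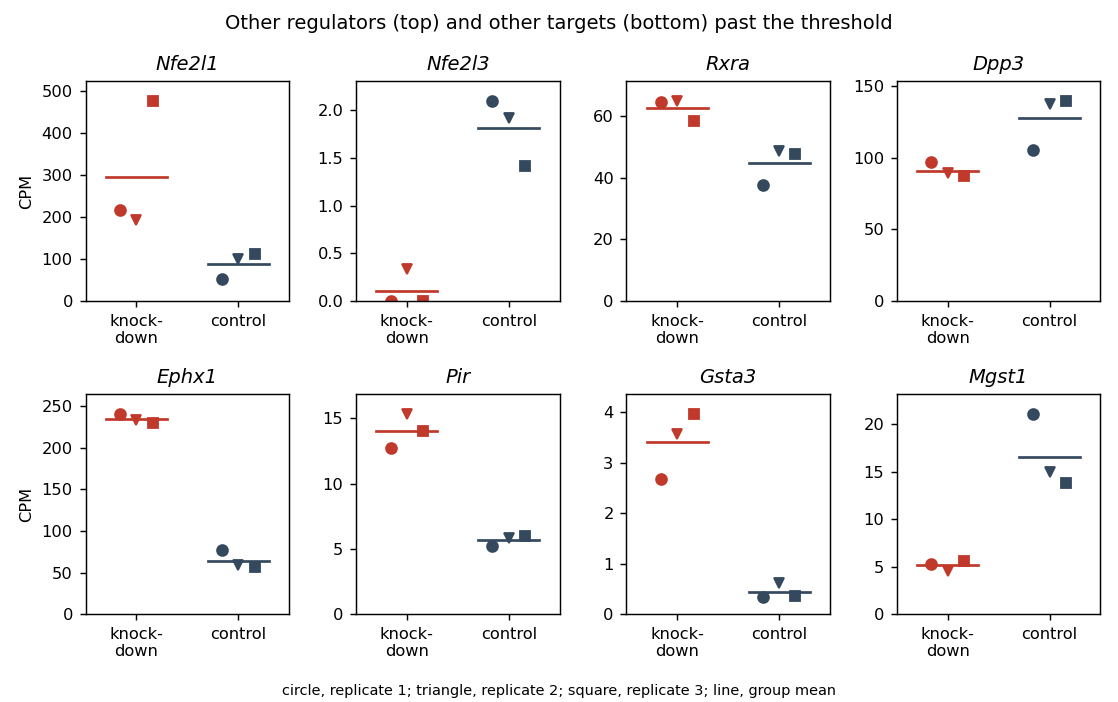
CPM in each library, knockdown left of control, with a line at the group mean, for 4 other regulators (top) and 4 other targets (bottom) that passed the threshold. In each panel the 3 knockdown libraries lie wholly above or wholly below the 3 control libraries, and knockdown replicate 3 (square) stands at 476 CPM for Nfe2l1.

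A list of 34 other textbook targets, of which 31 were tested, had 6 higher and 6 lower members (38.7%, against 20.6% of all genes), and its median log2 fold change was 0.05. Ephx1, the gene of microsomal epoxide hydrolase, had 240.3, 233 and 229.9 CPM in knockdown and 77.7, 58.8 and 57.2 CPM in control libraries (1.88, SE 0.134, edgeR adjusted p = 0.00153). The lowest knockdown library was far above the highest control library. Gsta3, an alpha-class glutathione transferase gene, had 41, 54 and 58 counts in knockdown and 4, 9 and 6 counts in control libraries (2.93, SE 0.347, edgeR adjusted p = 0.00444). Pir, the gene of the iron-binding protein pirin, had a log2 fold change of 1.32, Fech, the ferrochelatase gene of haem synthesis, 0.82 and Aox1, the aldehyde oxidase gene, 0.78, all higher (edgeR adjusted p = 0.00383, 0.00397 and 0.0108).

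In the other direction, Mgst1, a microsomal glutathione transferase gene, had 5.32, 4.51 and 5.61 CPM in knockdown and 21.0, 14.9 and 13.8 CPM in control libraries (log2 fold change -1.67, SE 0.203, edgeR adjusted p = 0.0046). Gsta4, another alpha-class transferase gene, fell by 0.82 in log2 units and Ptgr1, the prostaglandin reductase gene, by 0.43 (edgeR adjusted p = 0.0115 and 0.0169). The glutathione transferase genes have close paralogs with which reads may be shared. Whichever library was left out, Ephx1, Gsta3, Pir, Fech and Mgst1 passed, and the other 7 called targets lost their call in at least 1 such fit. These are 5 of the 31 tested targets, against 489 of all 11975 genes tested. Without control replicate 1 the list had 12 higher and 9 lower members, against 52.1% of all genes called.

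**Figure D5:**
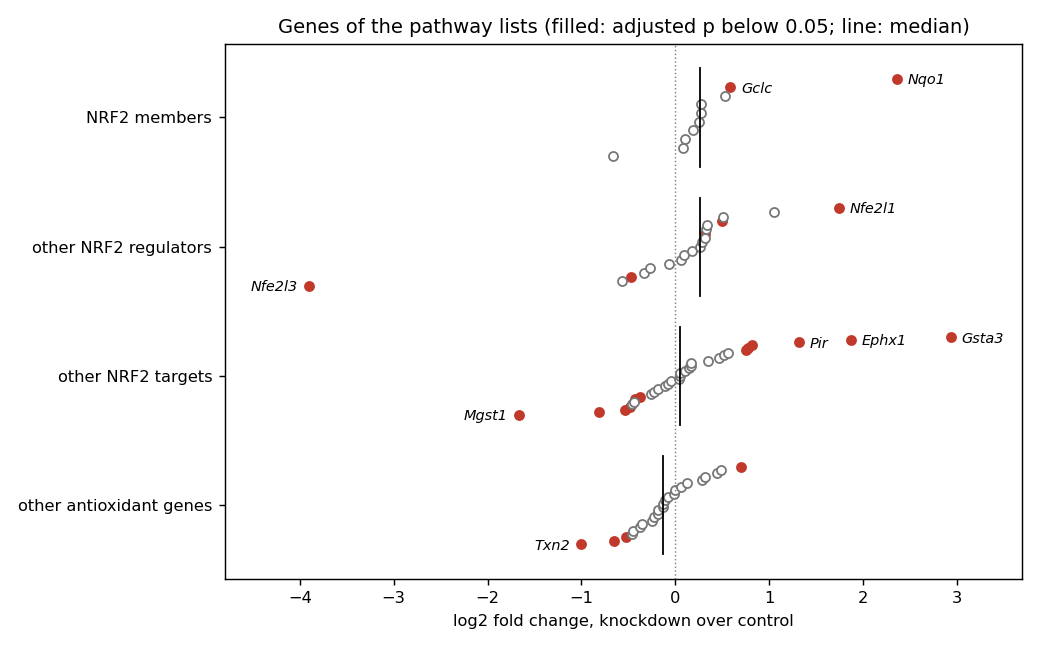
Log2 fold change, knockdown over control, of each tested gene of the 4 lists, filled where the edgeR adjusted p is below 0.05, with a line at the list's median. The members and the other regulators have medians of 0.27 and 0.26, the other targets have called genes on both sides of 0, and the other antioxidant genes have a median of -0.13.

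Of 25 antioxidant genes outside the other lists, 24 were tested, and 1 was higher and 3 lower (16.7%, against 20.6% of all genes), with a median of -0.13. Prdx3, the mitochondrial peroxiredoxin gene, had 114.7, 112.8 and 108.9 CPM in knockdown and 57.6, 74.0 and 76.5 CPM in control libraries (log2 fold change 0.70, SE 0.128, edgeR adjusted p = 0.0133). Txn2, the mitochondrial thioredoxin gene, had 35.6, 32.8 and 43.3 CPM in knockdown and 46.7, 86.2 and 93.7 CPM in control libraries (-1.01, SE 0.27, edgeR adjusted p = 0.0423). Txnrd3, a thioredoxin reductase gene, and the selenoprotein gene Selenow were lower, with log2 fold changes of -0.66 and -0.52 (edgeR adjusted p = 0.0253 and 0.0412). Prdx3 passed in 3 of the 6 fits with a library left out, and the other 3 genes passed only without control replicate 1. In that fit the list had 2 higher and 6 lower members, 33.3% of those tested, against 52.1% of all genes.

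The genes whose pattern over the 6 libraries was nearest to that of Nqo1, by the root mean square difference of centred log2 CPM, were Tff2 (0.192), Ephx1 (0.208) and Nlrc3 (0.208). They had log2 fold changes of 2.07, 1.88 and 2.29. The nearest to Nfe2l2 were Phip (0.0183), Pdzd8 (0.0213) and Gars (0.0247), with log2 fold changes of 0.28, 0.26 and 0.26, none of which passed. Like Nfe2l2, each of these 3 was lowest in control replicate 1, where Gars had 757 CPM, against 1098 to 1127 CPM in knockdown libraries and 1024 to 1025 CPM in control replicates 2 and 3. All these genes were picked for nearness of pattern over the same libraries. Their like fold changes and the low control replicate 1 follow from that choice and are not separate results.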

How the data were processed

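RNA of 3 knockdown and 3 control samples was analysed from 2 deposited tables. The count table holds the authors' whole-number read counts per gene with no normalization, and the second table the authors' FPKM values, which over 7328 genes with at least 200 counts imply 1 length per gene in all libraries within 0.0218%. Per the submitters' processing notes, HISAT2 2.0.5, featureCounts 1.5.0-p3 and mm10 were used. The sources used here give no annotation, strand setting or filter. All per-sample columns were used.

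The deposited counts entered edgeR 4.0.16 (R 4.3.3): filterByExpr (11975 genes kept), TMM scaling, a quasi-likelihood fit with the group as its only term and Benjamini-Hochberg adjustment over all genes tested, with a threshold of 0.05. The SE is the log2 fold change divided by the root of the F statistic. The procedure was tested on simulated data in which no library stood apart, so that test does not cover a library like control replicate 1. Alternatives were other scalings and filters, DESeq2 1.42.0, limma-voom (limma 3.58.1), limma on log2 FPKM, a replicate block and each library left out. Totals of 11933736 to 16248346 counts set the precision, and 3 counts, the most that 0 allows, correspond to 0.185 to 0.251 CPM (counting error only). Exonic overlap is from GENCODE M21, promoter windows from RefSeq.

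The members and lists were chosen with earlier results of these data known. Named are all members, Zfp207, up to 8 genes of each other list past the threshold with the smallest p, and the 3 genes nearest in pattern to Nqo1 and to Nfe2l2, with predicted genes left out. Genes named outside that rule are marked where they occur or are markers of a cell type, apart from Malat1, which is given to describe the libraries.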

Additional observations from a re-analysis of the deposited data

How the results depend on the processing

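With all 6 libraries, 2466 genes, 2 members, 5 other regulators, 12 other targets and 4 other antioxidant genes passed. With each library left out in turn the counts ranged from 534 to 6313 (4.37% to 52.1% of all genes), from 1 to 7, from 0 to 14, from 5 to 21 and from 0 to 8 in that order, the highest each time without control replicate 1. Same-numbered samples did not deviate together (r = -0.008, 0.008 and 0.053 across genes). These values give no sign of pairing but cannot exclude it, and the labels do not state it. A replicate block gave 987 (8.24% of all genes), 1, 1, 6 and 1, where Gclc had an adjusted p of 0.0737. The regulators numbered 2 without a filter (10% of those tested, against 11% of all genes), 8 by DESeq2 (42.1% against 27%) and 3 by limma on log2(FPKM + 1) and on log2(FPKM + 0.1) (17.6%, against 20.8% and 20.2%). Of 160 refits of single members 147 left the call as it was, 7 gained it, 6 lost it, and in 0 did the sign change. The other scalings moved the median of all genes to -0.02 and -0.09, and leaving out mitochondrially encoded genes moved it to -0.01. With 3 libraries a group and 60 counts of Nqo1 over the control libraries, small changes of low genes are at the limit of this depth.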

Other observations

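Genes of NADPH supply, export and iron storage are among the other textbook targets. All genes named here were picked with their values in view and fall outside the rule for naming genes. Of the enzymes that supply NADPH, Pgd, the 6-phosphogluconate dehydrogenase gene, had 157, 144 and 140.4 CPM in knockdown and 182, 198 and 197 CPM in control libraries (edgeR log2 fold change -0.37 with SE 0.0894, adjusted p = 0.031). It lost its call in 5 of the 6 fits with a library left out. G6pdx and Tkt had log2 fold changes of -0.23 and -0.19, Taldo1 and Me1 of 0.15 and 0.04, and none of these 4 passed (edgeR adjusted p of 0.401 to 0.778). Of the exonic bases of G6pdx 13.6% overlap a gene on the opposite strand. In the fit without control replicate 1, where 52.1% of all genes passed, Pgd, G6pdx and Tkt were lower (-0.42, -0.40 and -0.42) and Taldo1 higher (0.27). Me1 did not pass in that fit (0.05, edgeR adjusted p = 0.36).

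Of the 4 export pumps on the list, Abcc3, a multidrug resistance protein gene, had 176, 160 and 159 CPM in knockdown and 72.2, 114.5 and 109.4 CPM in control libraries (log2 fold change 0.75, SE 0.182, edgeR adjusted p = 0.0317). It passed in 2 of the 6 fits with a library left out. Abcc4, Abcc1 and Abcc2 had log2 fold changes of 0.35, 0.52 and 0.05 and did not pass (edgeR adjusted p = 0.0612, 0.0765 and 0.857). In the fit without control replicate 1, where 52.1% of all genes passed, Abcc3, Abcc4 and Abcc1 were higher (0.57, 0.26 and 0.35) and Abcc2 did not pass (-0.10). The ferritin heavy chain gene Fth1 had 880, 836 and 850.5 CPM in knockdown and 772, 492 and 496 CPM in control libraries, and the light chain gene Ftl1 had 513, 343 and 497 CPM in knockdown and 853, 486 and 538 CPM in control libraries. Neither passed (edgeR adjusted p = 0.079 and 0.238), and both were highest among the controls in control replicate 1. With that library left out Fth1 was higher (0.80, edgeR adjusted p = 1.46e-05) and Ftl1 did not pass (-0.18, edgeR adjusted p = 0.382). Ftl1 shares 8.13% of its exonic bases with a gene on its strand and 26.5% with one on the opposite strand.

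Sqstm1, whose protein p62 competes for KEAP1 and is itself a target of NRF2, is one of the other regulators. It had 1106, 1150 and 1183 CPM in knockdown and 1255, 1905 and 1992 CPM in control libraries, and did not pass with all libraries (log2 fold change -0.57, SE 0.192, edgeR adjusted p = 0.0796). It was lower with control replicate 1 left out (-0.76, edgeR adjusted p = 2.93e-05), and 17.3% of its exonic bases overlap a gene on the opposite strand. Slc7a11, the cystine transporter gene, had 457, 474 and 474 CPM in knockdown and 306, 516 and 493 CPM in control libraries (0.11, SE 0.203, edgeR adjusted p = 0.744).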
